A study of Mus musculus with 12 samples.

Results

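Collagen genes were taken as the protein-coding genes of GENCODE M21 (mouse build mm10, the same sequence as GRCm38) whose symbol is Col, a number, a and a number, which gave 44 of 21951 protein-coding genes. A peak of BMAL1-ChIP-seq, a place in the genome where DNA was enriched by an antibody against the clock factor BMAL1, was assigned to the gene whose start site lay nearest to the centre of the peak. A gene with at least 1 assigned peak was counted as called. BMAL1 binding was mapped in primary mouse adult fibroblasts (MAFs), grown, per the methods, out of ear tissue of adult C57BL6/J females. The labels name no engineered allele in either group. Control MAFs were sham irradiated and senescent MAFs received 20 Gy of x-rays. Per the methods, the irradiated MAFs were then kept in culture for weeks before use. Both groups were grown at 3% O2, were synchronized with 100 nM dexamethasone, a glucocorticoid, for 2 h, and were collected 12 h later. Each group has 3 BMAL1-ChIP-seq libraries. No source says whether the 3 replicates came from separate mice or cultures, so the p-values below measure only the spread between these libraries, which may be technical. Peak lists hold no expression, and the fibroblast label could not be checked against marker genes.

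Collagens are the main structural proteins of the extracellular matrix. Each molecule is a triple helix of alpha chains, identical or not, and each kind of chain has its own gene. Fibrillar collagens build the fibers of skin, tendon, bone and cartilage, fibril-associated collagens (FACIT) coat those fibers, and type IV collagens form the network of basement membranes. Dermal fibroblasts are a major source of type I, III, V and VI collagen, whereas type II, IX and XI collagen are typical of cartilage. BMAL1 pairs with CLOCK and binds the E-box CACGTG, and AP-1 is a dimer of JUN and FOS proteins that binds TGAGTCA or its reverse complement TGACTCA.

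Some collagen regions recurred between libraries and held a motif, and sequences from these are shown first. Most collagen regions, 99 of 138, were called in 1 library. Peaks of the 6 libraries that overlapped by at least 1 bp were merged into a region. Below are stretches of the GRCm38 reference sequence, read 5′ to 3′ on the forward strand, from regions called in at least 2 libraries, with the motif in capitals. The first set shows E-boxes, and is given because they are the sequence that BMAL1 and CLOCK bind.
Col1a1, chr11:94873059-94873098, region called in 6 libraries: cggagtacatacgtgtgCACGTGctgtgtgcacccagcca
Col6a3, chr1:90754439-90754478, called in 5: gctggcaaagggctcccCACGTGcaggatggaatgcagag
Col18a1, chr10:77082617-77082656, called in 5: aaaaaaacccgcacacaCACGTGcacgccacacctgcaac
Col9a3, chr2:180601000-180601039, called in 4: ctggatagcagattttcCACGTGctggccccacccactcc
Col6a6, chr9:105880885-105880924, called in 3: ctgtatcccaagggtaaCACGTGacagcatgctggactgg
Col12a1, chr9:79617516-79617555, called in 3: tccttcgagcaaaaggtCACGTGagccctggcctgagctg
Col25a1, chr3:130328953-130328992, called in 2: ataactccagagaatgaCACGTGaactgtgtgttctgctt
Col2a1, chr15:98003503-98003542, called in 2: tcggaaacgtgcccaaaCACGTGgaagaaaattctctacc
Col5a1, chr2:27843059-27843098, called in 2: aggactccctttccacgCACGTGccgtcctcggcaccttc

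The next set shows AP-1 sites, given because the share of collagen peaks that held this motif was larger in every senescent library than in any control library. The first 3 are from regions called in all 3 senescent libraries, and the other 4 from regions called in 2 libraries, at Col8a1 both of them control libraries.
Col5a1, chr2:27889040-27889080, called in 4: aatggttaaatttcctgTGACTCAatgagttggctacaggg
Col5a1, chr2:27858712-27858752, called in 3: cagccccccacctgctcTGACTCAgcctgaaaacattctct
Col19a1, chr1:24553545-24553585, called in 3: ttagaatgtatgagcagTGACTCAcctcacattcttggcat
Col6a3, chr1:90834934-90834974, called in 2: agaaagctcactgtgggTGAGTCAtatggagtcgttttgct
Col5a2, chr1:45626105-45626145, called in 2: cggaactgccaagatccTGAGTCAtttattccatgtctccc
Col8a1, chr16:57715225-57715265, called in 2: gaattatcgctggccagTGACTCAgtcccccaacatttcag
Col18a1, chr10:77151737-77151777, called in 2: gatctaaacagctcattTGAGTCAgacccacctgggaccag
The last set shows RUNX sites, which bind a family of factors active in cartilage and bone, at 2 fibrillar collagens with peaks mostly in control libraries.
Col3a1, chr1:45314077-45314116, called in 3: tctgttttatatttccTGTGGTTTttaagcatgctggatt
Col11a1, chr3:114028357-114028396, called in 2: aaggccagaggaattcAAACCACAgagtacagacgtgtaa

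The lists held 2794, 3349 and 10601 peaks in control 1, 2 and 3, and 4220, 9805 and 5053 peaks in senescent 1, 2 and 3. The lists hold no reads, so the depth of a library is unknown, and a longer list cannot be told apart from a deeper or better enriched library. The control 3 library stands apart at the collagen genes: of 138 merged collagen regions, 84 (60.9%) were called in control 3 alone, against 27.8% of all 16818 regions. Each result is therefore given per library, and the results that change without control 3 are given both ways. Intervals below are 95% Wilson intervals and cover counting error only.

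Collagen genes were called more often than protein-coding genes at large in every library. Of the 44 genes, 11 (25.0%) were called in control 1, 10 (22.7%) in control 2 and 27 (61.4%) in control 3. In the same libraries 9.28%, 10.8% and 25.2% of all protein-coding genes were called. In senescent MAFs, 12 collagen genes (27.3%) were called in senescent 1, 15 (34.1%) in senescent 2 and 13 (29.5%) in senescent 3, and the shares of all genes were 14.4%, 26.4% and 16.5%. Control libraries called 16 ± 9.54 collagen genes (SD, n = 3) and senescent libraries 13.3 ± 1.53 (n = 3), a difference smaller than the spread. Without control 3 the control libraries had 10.5 collagen genes on average, below the senescent mean. Relative to all genes, the collagen share was 2.69, 2.11 and 2.43 times the background in control 1, 2 and 3, and 1.90, 1.29 and 1.79 times in senescent 1, 2 and 3. Every control library was above every senescent library in this ratio, also without control 3, but the groups met when a pair of regions near Col19a1 that match mitochondrial DNA was left out, with 1.90 in both control 2 and senescent 1.

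Collagen genes are long, and a long gene has more room for peaks. The median gene body was 114 kb for collagens and 17.4 kb for all protein-coding genes, and 29 of the 44 (65.9%) spanned at least 50 kb, against 22.8% of all. Among genes of at least 50 kb, the share called was 14.4%, 16.1% and 37.2% in control 1, 2 and 3, and 20.3%, 35.5% and 23.6% in senescent 1, 2 and 3. The 29 long collagens were called in 24.1%, 17.2% and 58.6% of cases in the control libraries and in 24.1%, 34.5% and 31.0% in the senescent libraries. The long collagens were thus above long genes at large in every library but senescent 2, by a small margin in control 2 and by the widest margin in control 3. The margin of control 2 rested on the pair of regions that match mitochondrial DNA. Of the 5 long collagens called there, Col19a1 was called through this pair alone. The shares of long genes were not counted without the pair. Set against long genes, the control libraries were no longer all above the senescent libraries. Control 2 (17.2% against 16.1%) lay closer to long genes at large than senescent 1 (24.1% against 20.3%) and senescent 3 (31.0% against 23.6%).

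The share of peaks that fell to collagen genes separated the groups. Collagen genes received 15 of the peaks in control 1 (0.537%, interval 0.326 to 0.884), 18 in control 2 (0.537%, 0.340 to 0.848) and 117 in control 3 (1.10%, 0.922 to 1.32). They received 14 peaks in senescent 1 (0.332%, 0.198 to 0.556), 32 in senescent 2 (0.326%, 0.231 to 0.460) and 15 in senescent 3 (0.297%, 0.180 to 0.489). All 3 control libraries lay above all 3 senescent libraries, although the intervals of control 1 and 2 overlap those of the senescent libraries. Control libraries had a mean share of 0.726% ± 0.327 and senescent libraries of 0.318% ± 0.0188 (SD, n = 3 each). The stretch of genome nearest to a collagen start site makes up 0.275% of the genome, so the senescent libraries held 1.08 to 1.21 times, and the control libraries 1.95 to 4.01 times, the number of peaks that an even spread over the genome would place there.

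**Figure D1:**
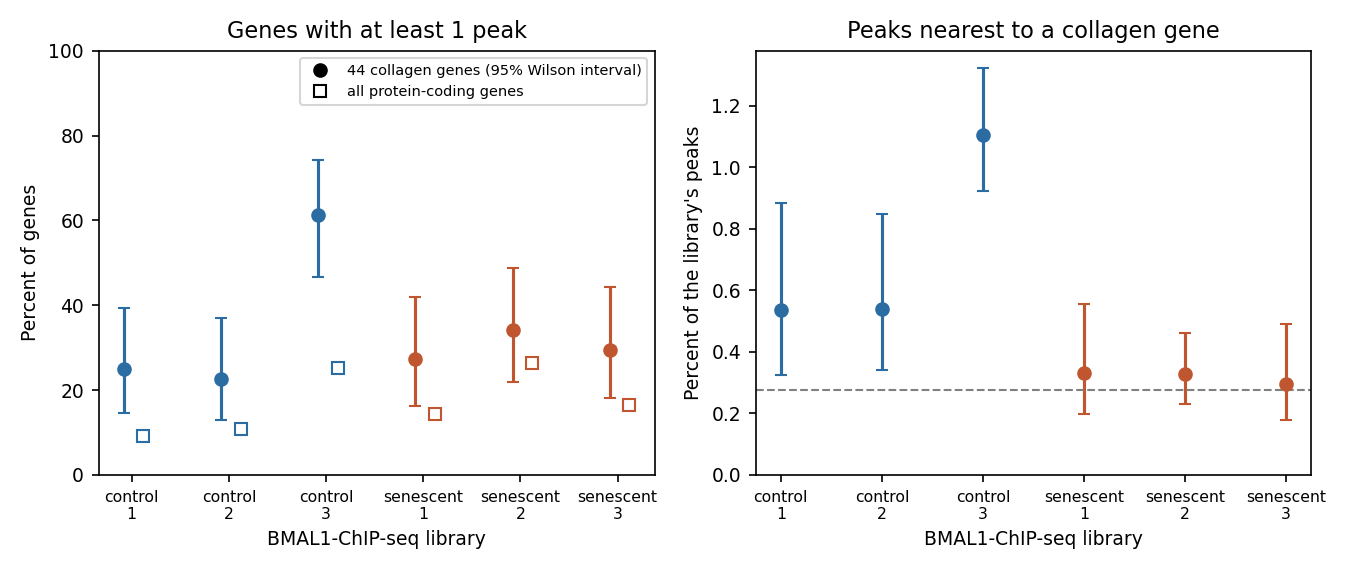
Left, the percent of genes with at least 1 peak in each BMAL1-ChIP-seq library, for the 44 collagen genes (filled circles, bars are 95% Wilson intervals) and for all protein-coding genes (open squares). Right, the percent of the peaks of each library that lie nearest to a collagen gene, with the dashed line at the 0.275% of the genome nearest to a collagen start site. The 3 control libraries (blue) lie at 0.537% to 1.10% and the 3 senescent libraries (orange) at 0.297% to 0.332%.

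Over the 6 libraries, 29 of the 44 collagen genes (65.9%) had a peak in at least 1 library, against 36.3% of all genes. The 15 without any peak were Col4a3, Col4a4, Col4a5, Col6a4, Col6a5, Col7a1, Col8a2, Col10a1, Col11a2, Col13a1, Col20a1, Col22a1, Col23a1, Col24a1 and Col26a1. A total of 12 collagen genes (27.3%) were called in control libraries alone, against 6.96% of all genes, and 2 (4.55%), Col6a6 and Col16a1, in senescent libraries alone, against 9.89%. Of the 12, 9 had peaks in control 3 alone (20.5%, against 4.96% of all genes), namely Col4a2, Col4a6, Col5a3, Col6a1, Col9a1, Col9a2, Col14a1, Col15a1 and Col27a1. This depends on the assignment to the nearest start site: with assignment by gene body, Col4a2 was called in all 6 libraries. Peaks in at least 2 control and 0 senescent libraries were found at 3 genes (6.82%, against 1.63% of all genes), Col8a1, Col11a1 and Col25a1. Peaks in at least 2 senescent and 0 control libraries were found at 1 gene (2.27%, against 3.42%), Col6a6. Without control 3, Col11a1 was the remaining gene of the first kind (2.27%, against 0.519% of all genes). The second kind then held Col1a2, Col4a1, Col5a1, Col6a6 and Col12a1 (11.4%, against 7.82% of all genes). Peaks in all 6 libraries were found at 5 genes (11.4%, against 5.12%), Col1a1, Col6a3, Col17a1, Col19a1 and Col28a1.

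**Figure D2:**
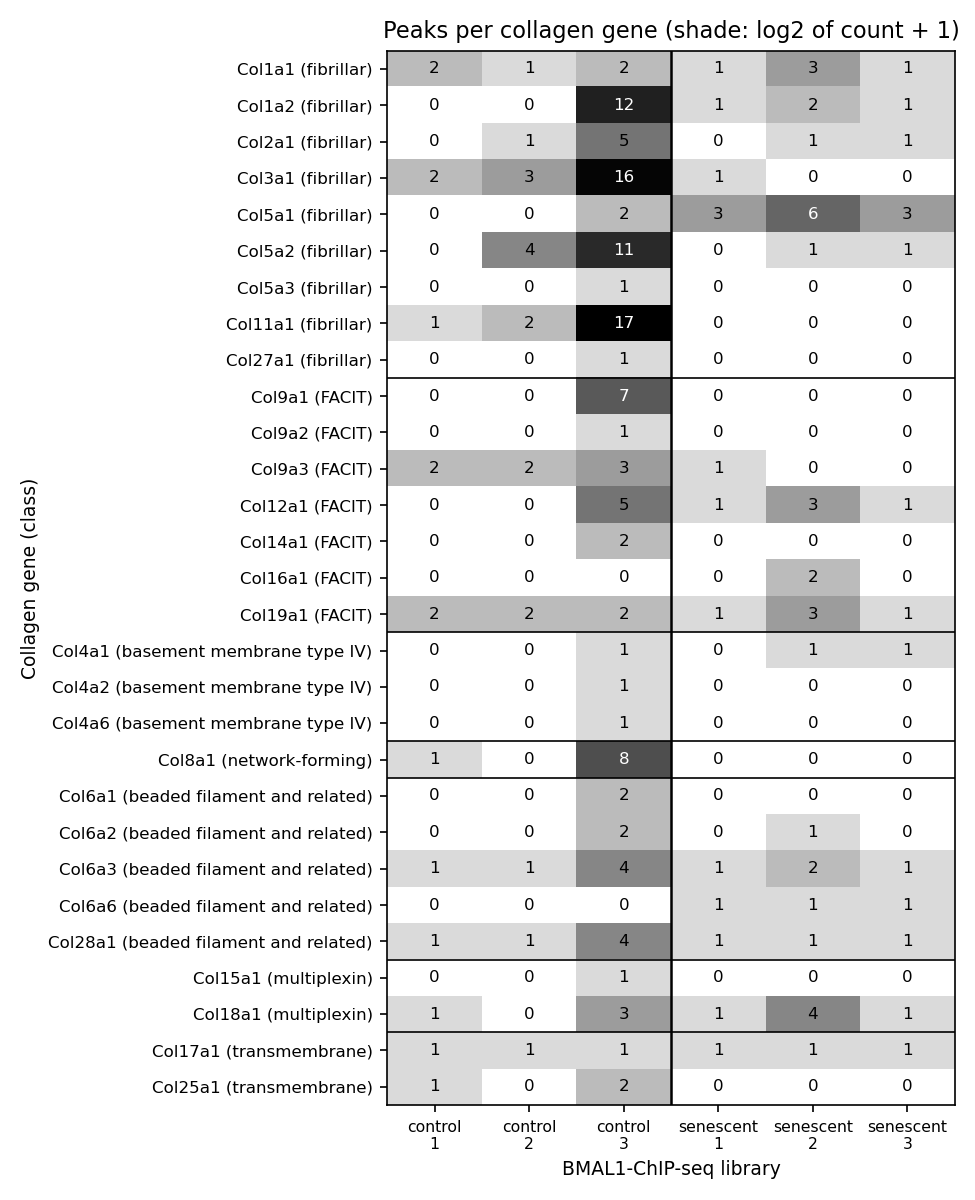
The number of peaks assigned to each of the 29 collagen genes with a peak (rows, grouped by class) in each library (columns, the vertical line parts control from senescent), with darker cells for more peaks on a log2 scale. Col11a1, Col3a1, Col1a2 and Col5a2 hold 11 to 17 peaks each in control 3, and Col5a1 holds 3, 6 and 3 peaks in the senescent libraries.

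The fibrillar collagens held the most peaks of any class. Of 11 fibrillar genes 9 were called in at least 1 library, against 36.3% of all genes. They held 5, 11 and 67 peaks in control 1, 2 and 3 and 6, 13 and 7 in senescent 1, 2 and 3. Over all libraries this is 83 control and 26 senescent peaks. Without control 3 it is 16 peaks summed over control 1 and 2, and 26 summed over senescent 1, 2 and 3. These sums cover unlike numbers of libraries. The lists of control 1 and 2 (2794 and 3349 peaks) were also shorter than any senescent list (4220 to 9805 peaks). Col11a1, which encodes a chain of the cartilage collagen type XI, had 1, 2 and 17 peaks in control 1, 2 and 3 and 0 in each senescent library. Col3a1, the type III collagen of skin and vessel walls, had 2, 3 and 16 peaks in control 1, 2 and 3 and 1, 0 and 0 in senescent 1, 2 and 3. With the FACIT gene Col9a3 these were the 3 collagen genes (6.82%) with more peaks in every control than in every senescent library, a pattern seen in 0.665% of all genes.

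Col5a1, a chain of type V collagen, which sets the diameter of type I fibrils, had 0, 0 and 2 peaks in control 1, 2 and 3 and 3, 6 and 3 peaks in senescent 1, 2 and 3. Col5a1 and Col6a6 were the 2 collagen genes (4.55%) with more peaks in every senescent than in every control library, against 1.85% of all genes. Col5a2, which encodes the partner chain of Col5a1, had 0, 4 and 11 peaks in the control libraries and 0, 1 and 1 in the senescent libraries. The groups of Col5a2 overlapped, since control 1 had no peak. The genes for these partner chains therefore differed in which group held more of their peaks.

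Col1a1 and Col1a2 encode the chains of type I collagen, the main collagen of skin and bone. Col1a1 had 2, 1 and 2 peaks in control and 1, 3 and 1 in senescent libraries. Col1a2 had 0, 0 and 12 peaks in control and 1, 2 and 1 in senescent libraries, so that its control peaks came from 1 library. Col2a1, the main collagen of cartilage, had 0, 1 and 5 peaks in control and 0, 1 and 1 in senescent libraries. At Col1a1, Col1a2 and Col2a1 the groups overlapped in the number of peaks.

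In control 3, 8 collagen genes (18.2%) held 5 or more peaks, against 1.57% of all genes. They were Col11a1 (17 peaks), Col3a1 (16), Col1a2 (12), Col5a2 (11), Col8a1 (8), Col9a1 (7), Col2a1 (5) and Col12a1 (5). In senescent 2, a list of similar length, the most peaks at a collagen gene were the 6 of Col5a1. The peaks in control 3 were not the highest-ranked of that list. Ranked by score within the list, where 0% is the best peak, the median rank was 72.0% for the 17 peaks of Col11a1, 61.7% for the 16 of Col3a1, 54.5% for the 12 of Col1a2 and 57.4% for the 11 of Col5a2. Of the 16 Col3a1 peaks 11 lay in the gene body, all within its first 15 kb, which is 2.88 peaks per 10 kb of gene body. Of the 17 Col11a1 peaks 8 lay in the gene body, 4 of them in its first 15 kb. For Col5a2, 8 of 11 lay in the gene body and 5 of them in the first 15 kb.

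**Figure D3:**
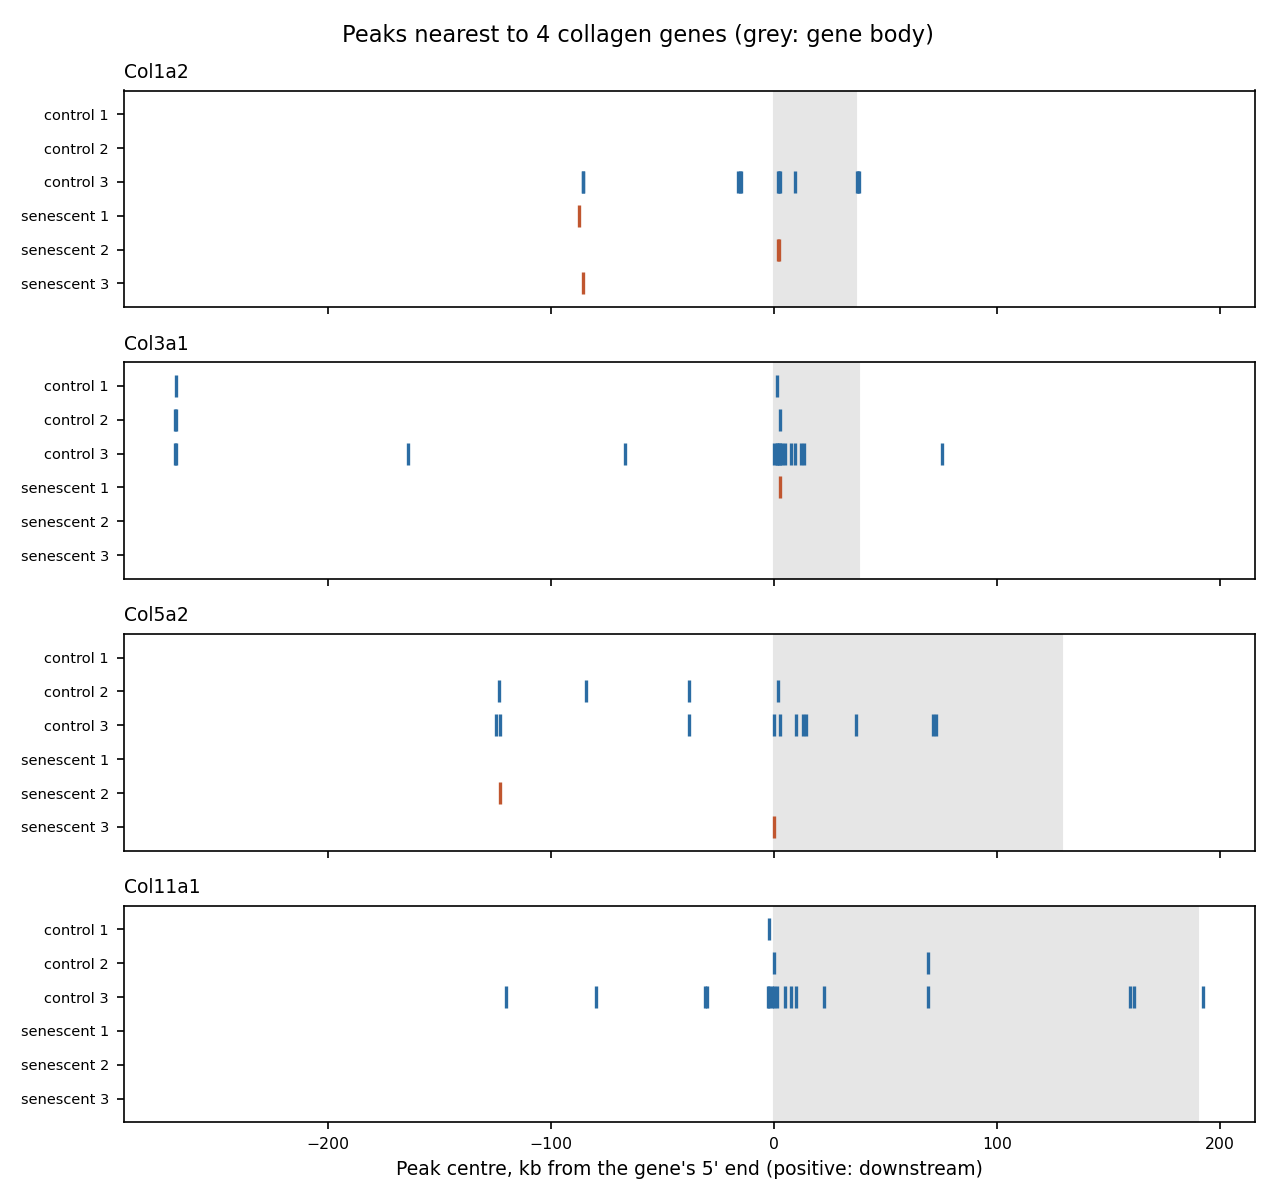
Centres of the peaks assigned to Col1a2, Col3a1, Col5a2 and Col11a1 in each library, in kb from the 5′ end of the gene (grey, gene body; blue, control; orange, senescent). In control 3 the peaks of Col3a1 crowd the first 15 kb of the gene, and no senescent library has a peak at Col11a1.

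Few collagen peaks lay at promoters. A peak within 1000 bp of a start site was found at 1, 1 and 7 collagen genes in control 1, 2 and 3, where 3.71%, 4.51% and 12.9% of all genes had one. In senescent 1, 2 and 3 it was found at 0, 4 and 1 collagen genes, where 7.12%, 16.6% and 8.36% of all genes had one. As a share of the 44 collagen genes, this was above the share of all genes in control 3 and below it in every other library. Of the peaks assigned to collagens 6.67%, 5.56% and 7.69% lay within that distance in the control libraries and 0%, 12.5% and 6.67% in the senescent libraries. For all peaks the shares were 31.8%, 32.9% and 31.6%, and 40.4%, 45.0% and 39.9%. In each of the 6 libraries the collagen share was below the share of all peaks.

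Of the 138 collagen regions, 12 (8.70%) lay within 1000 bp of a start site, against 33.9% of all regions. Their genes were Col1a1, Col1a2, Col3a1, Col5a2, Col6a1, Col6a2, Col9a1, Col11a1, Col12a1 and Col16a1. At Col1a1 a promoter peak was called in control 1, and the centre of another peak lay within that distance in control 3. At Col3a1 it was called in control 3 alone. The promoter region of Col5a2 was called in control 3 and senescent 3, and that of Col1a2 in control 3 and senescent 2. The promoter region of Col11a1, 116 bp upstream of the start site, was called in control 2 and control 3. Introns of the gene itself held 79 of the 138 regions, 48 were intergenic, 6 lay in an intron of another gene and 5 in an untranslated exon, and 39 lay over 50 kb from the nearest start site. The median distance of collagen peaks to the start site was 25.7, 29.4 and 18.0 kb in control 1, 2 and 3 and 33.4, 25.5 and 33.8 kb in senescent 1, 2 and 3, against 2.13 to 10.8 kb for all peaks.

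Of the 138 collagen regions, 99 (71.7%) were called in 1 library, against 55.7% of all regions, and 3 (2.17%) in all 6, against 6.58% of all regions. The 3 were an intergenic region 63.25 kb upstream of Col1a1 (chr11:94872565-94873451), an intergenic region 18.4 kb upstream of Col17a1 (chr19:47710089-47710822) and an intronic region of Col28a1, 33.1 kb from its start site (chr6:8159232-8159920). The Col1a1 region holds the E-box shown above, 105 bp from the centre of its best-ranked peak (senescent 2). The Col17a1 and Col28a1 regions hold none of the motifs searched. A region called in at least 2 control and 0 senescent libraries was found 11 times (7.97%, against 5.86% of all regions), and the reverse 7 times (5.07%, against 9.44%). Without control 3, 54 collagen regions remained, of which 16 (29.6%) were called in control libraries alone, against 11.4% of all regions, and 29 (53.7%) in senescent libraries alone, against 66.9%.

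The 11 regions of the control side lay at Col2a1, Col3a1, Col5a2, Col8a1, Col9a3, Col11a1 and Col25a1. One of them, 268 kb upstream of Col3a1 (chr1:45043209-45043487), was called in all 3 control libraries, and the next gene by start site is Gulp1. The 3 regions of Col11a1 lay 2.20 kb upstream, 0.116 kb upstream and 69.0 kb downstream of its start site, each called in control 3 and 1 other control library. At Col2a1 an intronic region 6.85 kb from the start site was called in control 2 and control 3, and another, 1.16 kb from the start site, in senescent 2 and senescent 3. The latter holds the E-box printed for Col2a1.

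The 7 regions of the senescent side lay at Col2a1, Col4a1, Col5a1, Col6a6 and Col19a1, and 3 of them were called in all 3 senescent libraries. The first lay 27.6 kb upstream of Col5a1 (chr2:27858421-27858923), held an AP-1 site, and ranked at position 2055.5 of 4220, 1817.5 of 9805 and 3208 of 5053 in senescent 1, 2 and 3. The second was assigned to Col6a6, a type VI collagen chain, 52.8 kb upstream of its start site (chr9:105880837-105881115). It lies in an intron of the neighbouring Col6a5 and holds an E-box 71 bp from the centre. Its rank was 3071, 4820.5 and 1678 in senescent 1, 2 and 3. The third lay in an intron of Col19a1 (chr1:24553524-24553854) and held an AP-1 site. The Col4a1 region, called in senescent 2 and 3, lies in an intron of Col4a2. Col4a1 and Col4a2, which encode chains of basement membrane collagen, start next to each other on opposite strands, and the region lies 80.4 kb from the start sites of both genes.

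A further region of Col5a1, in an intron 2.54 kb downstream of its start site (chr2:27888859-27889092), held the other AP-1 site printed above and was called in all 3 senescent libraries and in control 3. The FACIT gene Col12a1 had 0, 0 and 5 peaks in control and 1, 3 and 1 in senescent libraries, and its E-box region, 101 kb from the start site, was called in control 3, senescent 2 and senescent 3. Col9a3 had 2, 2 and 3 peaks in control and 1, 0 and 0 in senescent libraries. Its E-box region in an intron, 2.65 kb from the start site (chr2:180600595-180601145), was called in all 3 control libraries and in senescent 1, with its best rank, 4.38% of the list, in control 3. Among the other chains of cartilage collagen IX, Col9a1 had 7 peaks and Col9a2 had 1 peak, all in control 3. Col10a1 and Col11a2, also typical of cartilage, had none.

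Of the beaded filament class, 5 of 7 genes were called in at least 1 library, against 36.3% of all genes. Col6a3 had 1, 1 and 4 peaks in control and 1, 2 and 1 in senescent libraries, and its E-box region 89.5 kb downstream of the start site was called in every library but senescent 3. Col6a1 had 2 peaks in control 3 and none elsewhere, and Col6a2 had 2 peaks in control 3 and 1 in senescent 2. Of the remaining classes, the multiplexin Col18a1, the precursor of endostatin, had 1, 0 and 3 peaks in control and 1, 4 and 1 in senescent libraries, and its E-box region in an intron was called in every library but control 2. The transmembrane collagen Col25a1 had 1, 0 and 2 peaks in control libraries, and the network-forming collagen Col8a1 had 1, 0 and 8, with 0 in each senescent library for both. The FACIT gene Col14a1 had 2 peaks, both in control 3. Type IV genes had a peak in at least 1 library in 3 of 6 cases, against 36.3% of all genes. They had 3 peaks in control 3, none in the other control libraries and 1 each in senescent 2 and 3. With assignment by gene body, however, the type IV gene Col4a2 was called in all 6 libraries.

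For the 5 collagen genes called in all 6 libraries, the rank of the best peak was compared between the groups by an exact two-sided permutation test, for which 3 against 3 libraries allow no p below 0.1. Over the 1123 genes called in all 6 libraries, 13.4% ranked better in every senescent than in every control library and 5.52% the other way round, and no gene had an adjusted p below 0.527 after Benjamini-Hochberg correction. The peak upstream of Col17a1, the hemidesmosomal collagen, ranked at 23.0%, 10.7% and 3.88% of the list in control 1, 2 and 3 and at 2.39%, 1.05% and 1.90% in senescent 1, 2 and 3. All senescent libraries ranked it better than all control libraries, with a mean of 1.78% ± 0.679 against 12.5% ± 9.67 (SD, n = 3 each, exact permutation p = 0.1, adjusted p = 0.527). The difference of -10.8 percentage points was -5.53 without control 1. The region lies 21.2 kb from the start site of the next gene, Sfr1.

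Col1a1 ranked at 6.26%, 4.20% and 3.17% in control and at 13.4%, 3.04% and 3.66% in senescent libraries (exact permutation p = 0.9, adjusted p = 0.965, n = 3 each), and the groups overlapped. Col28a1 ranked at 18.0%, 73.2% and 14.6% in control and at 11.2%, 14.6% and 16.6% in senescent libraries (exact permutation p = 0.3, adjusted p = 0.689, n = 3 each). Col6a3 ranked at 57.7%, 75.6% and 9.83% in control and at 46.7%, 55.5% and 90.0% in senescent libraries (exact permutation p = 0.6, adjusted p = 0.843, n = 3 each). These ranks of Col6a3 compare unlike sites. The best peak of control 3 lay at chr1:90834736-90835168 and that of senescent 3 at chr1:90750204-90750469. In the other libraries it was the E-box region, which in control 3 ranked at position 7177 of 10601. For these 3 genes the groups were not separated by rank.

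Col19a1, a FACIT collagen, ranked at 1.18%, 1.07% and 0.132% in control and at 30.9%, 4.61% and 22.1% in senescent libraries (exact permutation p = 0.1, adjusted p = 0.527, n = 3 each), better in every control library. The control peaks, and the best peak of senescent 2, were a pair of regions 25.3 and 25.6 kb upstream of the gene (chr1:24612646-24612858 and chr1:24613006-24613236). Both match the mitochondrial genome, at 99.5% identity over 213 bp and 99.6% over 231 bp. They were the only 2 of the 16818 regions that matched it at 99% or more over at least 100 bp. Without this pair Col19a1 had no peak in a control library, and its single intronic region, called in all 3 senescent libraries, remained. Whether reads from mitochondrial DNA gave the pair its peaks was not tested.

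**Figure D4:**
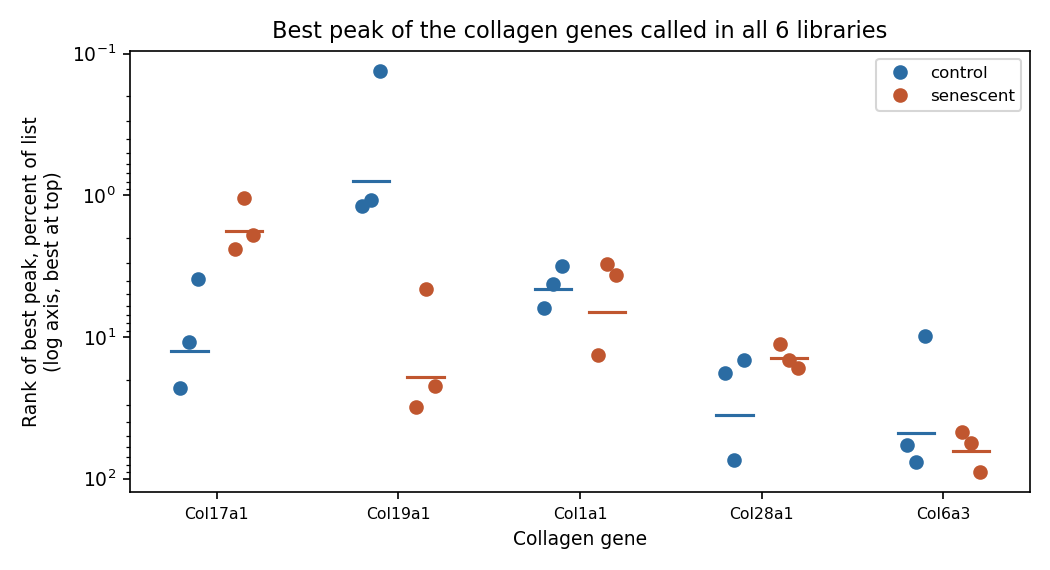
Rank of the best peak as a percent of the list (log axis, best at the top) for the 5 collagen genes called in all 6 libraries, with 1 point per library and a line at the mean of each group (n = 3). Col17a1 ranks better in each senescent library, and the control points and the senescent 2 point of Col19a1 (4.61%) come from the pair of regions that match mitochondrial DNA.

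Within 100 bp of the centre, 10 of the 138 collagen regions held an E-box (7.25%, interval 3.98 to 12.8), against 16.7% of all regions and 2.17% of windows of the same length placed 2000 bp to each side of the collagen regions. The E-boxes of the Col1a1 and Col9a3 regions printed above lie 105 and 150 bp from the centre and are not among the 10. Of the 39 collagen regions called in at least 2 libraries 7 did (17.9%, 8.98 to 32.7), against 26.0% of all such regions. An AP-1 site was held by 22 collagen regions (15.9%, 10.8 to 23.0), against 16.5% of all regions and 6.88% of the windows to the side. All 22 lay over 1000 bp from a start site, where 17.5% of collagen regions and 22.5% of all regions held one. The E-box variant CACGTT was held by 7 (5.07%, against 6.0% of all regions), a RUNX site (TGTGGTTA or TGTGGTTT) by 8 (5.80%, against 4.57%) and a SOX site (ACAAAGG or ACAATGG) by 8 (5.80%, against 5.08%). Both strands were searched, and the E-box and its variant cannot match the same 6 bases.

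By library, the E-box share of collagen peaks was 33.3%, 16.7% and 5.98% in control 1, 2 and 3 and 35.7%, 21.9% and 33.3% in senescent 1, 2 and 3. In all peaks of the same libraries the shares were 30.8%, 23.9% and 13.6%, and 40.0%, 23.2% and 33.2%. The groups overlapped, but without control 1 they did not, with means of 11.3% in control and 30.3% in senescent libraries. The AP-1 share of collagen peaks was 6.67% (1 of 15 peaks), 5.56% (1 of 18) and 12.8% (15 of 117) in control 1, 2 and 3, and 28.6% (4 of 14), 28.1% (9 of 32) and 33.3% (5 of 15) in senescent 1, 2 and 3. All 3 senescent libraries lay above all 3 control libraries, with a mean of 30.0% ± 2.89 against 8.35% ± 3.91 (SD, n = 3 each). Among all peaks, 12.7%, 12.9% and 13.1% in control 1, 2 and 3 and 16.4%, 17.1% and 16.6% in senescent 1, 2 and 3 held an AP-1 site. In every library a larger share of all peaks than of collagen peaks lay within 1000 bp of a start site. The comparison with all peaks is therefore not matched for position, and the AP-1 share of distant peaks was not counted per library. The Wilson interval of senescent 1, 11.7% to 54.6%, overlaps that of control 3, 7.93% to 20.1%.

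**Figure D5:**
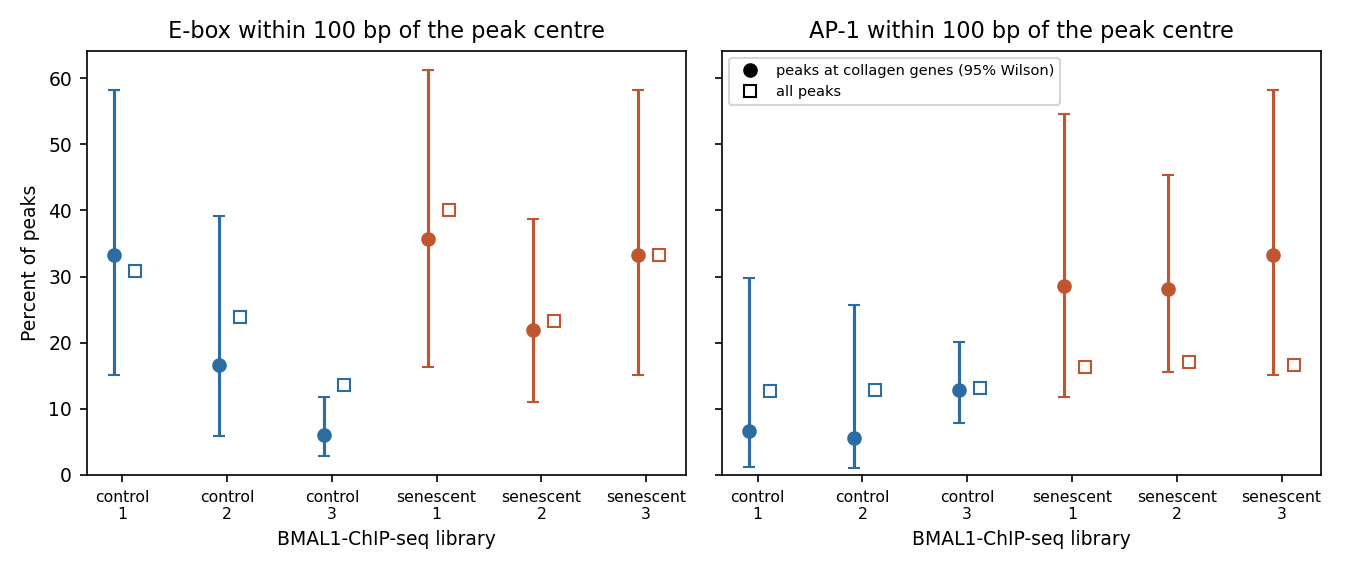
Percent of peaks with an E-box (left) or an AP-1 site (right) within 100 bp of the centre, in each library, for peaks at collagen genes (filled circles, 95% Wilson intervals) and all peaks (open squares). For AP-1 the collagen shares lie at 5.56% to 12.8% in control (blue) and at 28.1% to 33.3% in senescent libraries (orange), while the E-box shares overlap with all 6 libraries in.

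Much of the AP-1 difference came from Col5a1, where 0, 0 and 2 peaks in control and 2, 4 and 3 peaks in senescent libraries held an AP-1 site. Without Col5a1 the AP-1 share of collagen peaks was 6.67%, 5.56% and 11.3% in control and 18.2%, 19.2% and 16.7% in senescent libraries. It was still higher in every senescent than in every control library, but rested in the senescent libraries on 2, 5 and 2 peaks. These senescent shares lay near those of all peaks of the same libraries, 16.4%, 17.1% and 16.6%. The control shares lay below those of all peaks, 12.7%, 12.9% and 13.1%. Col12a1 held an AP-1 site in 1 peak each of control 3, senescent 1 and senescent 3, and Col19a1 in 1 peak each of senescent 1 and senescent 3. The AP-1 sites of control 3 were spread over 13 collagen genes, those of senescent 1, 2 and 3 over 3, 5 and 3.

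Promoter sequences, 250 bases before to 50 after the start of the gene, were found in RefSeq (GRCm38) for 35 of the 44 collagen genes. None of the 35 held an E-box, against 8.09% of 27025 promoters of all genes. The variant CACGTT was found at Col4a4 and Col6a6 (5.71%, against 5.44%), an AP-1 site at Col6a1 (2.86%, against 5.95%), a SOX site at Col17a1 and Col20a1 (5.71%, against 10.5%) and a RUNX site at none (against 2.95%).

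Genes that act on collagens were counted in the same way. Of 31 genes for enzymes, chaperones and proteases that process collagen, 9, 9 and 15 were called in control 1, 2 and 3 and 9, 16 and 8 in senescent 1, 2 and 3. These are 29.0%, 29.0% and 48.4%, and 29.0%, 51.6% and 25.8%, above the shares of all genes given earlier (9.28% to 26.4%), and 20 (64.5%, against 36.3%) were called in at least 1 library. Lox, which cross-links collagen fibers, had 9, 17 and 27 peaks in control and 1, 5 and 1 in senescent libraries. Lox, P4ha2, P3h2 and Loxl4 were called in all 6 libraries (4 of 31 genes, against 5.12% of all genes). P4ha3, a prolyl hydroxylase subunit, was called in control 1 and control 3 and in no senescent library. It was the 1 gene of 31 called in at least 2 control and 0 senescent libraries, against 1.63% of all genes. Pcolce2, which enhances the cleavage of procollagen, had 1, 2 and 2 peaks in senescent libraries and 0 in each control library, and Fkbp10, a chaperone of procollagen, had 1, 1 and 0 against 0 in each control library. These were the 2 genes of 31 called in at least 2 senescent and 0 control libraries, against 3.42% of all genes.

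Among 7 collagen receptor genes 5 were called in at least 1 library (71.4%, against 36.3% of all genes). Itga1, the alpha chain of a collagen-binding integrin, had 1 peak in each control library and 0 in each senescent library. It was the 1 gene of 7 called in at least 2 control and 0 senescent libraries, against 1.63% of all genes. Ddr1, a receptor kinase for collagen, was called in all 6 libraries (1 of 7 genes, against 5.12% of all genes). All 4 genes of small proteoglycans that bind collagen fibrils were called in at least 1 library, against 36.3% of all genes, and all 4 in control 3. Dcn (decorin) had 0, 1 and 5 peaks and Bgn (biglycan) 0, 1 and 1 in control libraries, with 0 in each senescent library. These were 2 of the 4 genes, against 1.63% of all genes called in at least 2 control and 0 senescent libraries. Lum and Fmod were called in control 3 and in 1 senescent library each.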

How the data were processed

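BMAL1-ChIP-seq of 3 control and 3 senescent MAF libraries was analysed from peak lists; the 6 input libraries were not analysed here. Groups and replicate numbers came from the sample titles. The authors mapped reads to mm10 with BWA, removed duplicates with Picard and called peaks for each library with MACS2 in the HiChIP pipeline at an FDR of 1%. The MACS2 version, and whether the input was its control, are not given in the sources used here. The labels and the methods name antibodies from different suppliers. The score deposited with a peak was taken to be a −log10 q-value, a unit inferred from the values, since the smallest score of a list was 2.02 to 2.12, and 0 peaks lay below 2. It is not comparable between libraries and served only to rank peaks within a list (tied scores share a mean rank). Depth is unknown. Per the file headers the 6 lists came from the same sequencing lane.

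Peaks (35822 in all) were assigned by their centre to the nearest start site of any transcript of a protein-coding gene of GENCODE M21, for 87 genes without a protein-coding transcript to the 5′ end of the gene. Motifs were exact patterns within 100 bp of the peak centre (for a region, that of its best-ranked peak). Python 3.11.15, numpy 2.4.6, scipy 1.17.1, pysam 0.24.0, blastn 2.17.0 (match to the mitochondrial genome) and matplotlib 3.10.9 were used, and the scripts were tested on simulated data. Counts over collagen genes were described without a test. The rank of the best peak was tested by exact permutation over all 20 arrangements, with Benjamini-Hochberg correction over genes called in all 6 libraries.

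Genes were named when called in at least 3 libraries, in 2 or 3 libraries of a single group, or as a fibroblast or cartilage collagen on a list; other collagens were listed by their calls. The genes, lists and tests were chosen with earlier results of these data known, and Col2a1, Col9a1 and Col11a1 are named by the study from these samples. The alternatives tried were equal peak numbers (the best 2794 peaks of each list), peaks above the median score, a distance cap of 100 kb, assignment by gene body, 1 start site per gene, a promoter distance of 3000 bp, other motif windows, 50% overlap for merging, a call in 3 of 3 libraries and leaving out each library. Leaving out the mitochondrial matches, regions called in 1 library, or Col5a1, and the motif shares per library, were chosen after seeing the data. The numbers did not pair the libraries: deviations from the group means correlated at 0.0808, -0.0436 and -0.00159 for pairs 1, 2 and 3 over 1123 genes.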

Additional observations from a re-analysis of the deposited data

How the results depend on the processing

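Of the alternatives to the 18 values tracked, 164 kept the direction of the value within the spread between replicates or 1.5 times the count, 17 moved it and 4 reversed it. The lower number of collagen genes with a peak in senescent libraries (a difference of -2.67) and with a promoter peak (-1.33) both rested on control 3: without it they were 2.83 and 0.667, and leaving out 1 library gave -5.67 to 2.83 and -2.50 to 0.667. The difference in the collagen share of peaks ranged from -0.502 to -0.219 points. Genes called in 2 or more libraries of a single group numbered 1 to 5 on the control side (5 without senescent 1, 11.4% against 1.77% of all genes). They numbered 1 to 5 on the senescent side (5 without control 3, 11.4% against 7.82% of all genes). The control side held 1 when 3 of 3 libraries were asked for (2.27%, against 0.497%). The senescent side held 2 when peaks were assigned by gene body (Col6a5 and Col19a1, 4.55% against 3.14%) and 2 without the mitochondrial matches (4.55%, against 3.43%). Genes called in all 6 numbered 3 with peaks above the median score (6.82%, against 2.74% of all genes). With assignment by gene body they numbered 2 (Col4a2 and Col28a1, 4.55%), close to the share of all genes (4.49%). Within 50 bp of the centre the share of collagen regions was 3.62% for the E-box, 9.42% for AP-1, 2.17% for RUNX and 2.90% for SOX. The E-box share was 15.8% with equal peak numbers and 17.9% in regions called in at least 2 libraries, with that of all regions moving alike (27.2% and 26.0%). The senescent excess in the AP-1 share of collagen peaks was 21.7 points, and 14.5 within 50 bp, 10.3 with equal peak numbers and 20.0 to 23.9 leaving out 1 library, with the groups separate in each case. The mean rank difference (senescent minus control) of Col1a1, 2.16 points, was -1.19 without senescent 1 and -1.19 to 3.99 leaving out any library. That of Col6a3, 16.3 points, was -2.60 without control 3 and -2.60 to 30.3 leaving out any library. The best peak of Col6a3 in control 3 lay in another region than those of control 1 and 2. Leaving out any library gave -15.1 to -5.53 points for Col17a1 (-5.53 without control 1), -31.5 to -2.17 for Col28a1 (-21.2 with all, -2.17 without control 2) and 12.6 to 25.7 for Col19a1. The senescent excess in the E-box share of collagen peaks, 11.6 points, was 5.31 without control 3 and 19.0 without control 1, where the groups separated. The cause of these changes was not tested.

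With the replicate block, a sign-flip over the 3 pairs of equal number, the mean rank difference of Col17a1 was -10.8 points, as without the block, and that of Col19a1 18.4 points. The p was 0.25 for Col17a1 and Col19a1, 0.75 for Col1a1, 0.5 for Col28a1 and 1 for Col6a3 by exact permutation, where 0.25 is the smallest value that 3 pairs allow, so that the block speaks for or against no call. Lists of peaks leave depth and enrichment unknown, and 14 or 15 collagen peaks in the shorter lists leave wide intervals for each share.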
